A study of Mus musculus with 5 samples.

Results

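The genes described here build MHC class I molecules and supply them with peptides: B2m, H2-K1, H2-D1, Tap1, Tap2, Tapbp, Psmb8, Psmb9, Psmb10 and Nlrc5. They were a given list, and every probe set (a group of short probes that reads the same transcript) whose only platform gene symbol was a listed name was taken. All 10 genes were on the array, of 18193 in all, with 27 of the 34945 probe sets that had 1 symbol. The members were chosen with earlier results of these data known.

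RNA came from CD4 T cells of the spleen of BALB/c mice, and each of 5 groups was hybridised to 1 Affymetrix mouse array. The groups were naive cells, control effector Th1 cells, effector Th1 cells labelled Rap, effector Th1 cells labelled TOFA, and memory Th1 cells. The stated culture was 5 days in IL-2 at 15 ng/ml with IL-12 at 10 ng/ml, which drive T cell growth and the Th1 fate, with no genetic change named in any group. The labels attach this culture to every sample, although only the effector samples are described as cultured cells. TOFA inhibits acetyl-CoA carboxylase (Acc1), the first enzyme of fatty acid synthesis, which the study's title ties to memory potential. The labels do not expand Rap and give no dose, and how memory cells were obtained, or how many mice gave each RNA, is not stated in the sources used here.

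MHC class I molecules carry peptides of a cell's own proteins to its surface, where CD8 T cells and NK cells read them. Proteasomes cut the peptides, the TAP transporter pumps them into the endoplasmic reticulum, and the loading complex fits them into a heavy chain paired with beta-2 microglobulin. Interferons, and in lymphocytes the coactivator NLRC5, raise transcription of genes of this pathway, and T cells are among the cells richest in class I molecules.

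All values below are signals after quantile normalization across the 5 arrays, and a gene is represented by its brightest probe set. With 1 array a group there is no replicate, no p-value and no SD between samples. The SD between probe sets of a gene is the only spread that can be given, and it leaves out differences between cultures. Differences are on the log2 scale, where 1 is 2-fold, and 2-fold is the limit used for calling a gene higher or lower. Signals under 43.4, the 40th percentile, were raised to that floor.

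The promoters of 4 members are shown because, on their brightest probe sets, the genes of the class I molecule (B2m, H2-K1, H2-D1) had like profiles. Tap1 and Psmb9, which lie head to head, did not. The letters run 5′ to 3′ up to the base before the RefSeq transcript start, in GRCm38.p6 (C57BL/6J). Of the 2 start sites of H2-K1, the one with more motif matches is shown. BALB/c mice carry another MHC haplotype, so their own letters may differ. Capitals mark matches on either strand to the core of an interferon response element (ISRE, AANNGAAA), an NF-kB site and a CCAAT box (CCAAT). Overlapping matches run together, as for NF-kB on both strands of H2-K1 and H2-D1.
B2m (chr2:122147437-122147686, + strand): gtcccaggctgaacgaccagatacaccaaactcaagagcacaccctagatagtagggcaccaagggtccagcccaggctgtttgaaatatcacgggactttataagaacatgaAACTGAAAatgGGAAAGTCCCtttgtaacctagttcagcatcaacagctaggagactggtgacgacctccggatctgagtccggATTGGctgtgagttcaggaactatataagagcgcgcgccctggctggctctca
H2-K1 (chr17:34000334-34000583, - strand): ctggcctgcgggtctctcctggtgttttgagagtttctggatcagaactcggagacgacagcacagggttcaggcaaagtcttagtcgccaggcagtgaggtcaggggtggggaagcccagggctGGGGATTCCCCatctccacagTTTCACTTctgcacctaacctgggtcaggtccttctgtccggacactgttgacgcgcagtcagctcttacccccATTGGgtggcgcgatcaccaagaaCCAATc
H2-D1 (chr17:35262844-35263093, + strand): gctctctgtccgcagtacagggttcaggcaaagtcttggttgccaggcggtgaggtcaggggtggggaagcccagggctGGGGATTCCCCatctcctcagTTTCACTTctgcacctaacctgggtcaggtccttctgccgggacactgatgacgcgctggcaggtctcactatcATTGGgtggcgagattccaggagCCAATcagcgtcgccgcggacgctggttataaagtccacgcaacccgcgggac
Tap1 (chr17:34187331-34187555, + strand): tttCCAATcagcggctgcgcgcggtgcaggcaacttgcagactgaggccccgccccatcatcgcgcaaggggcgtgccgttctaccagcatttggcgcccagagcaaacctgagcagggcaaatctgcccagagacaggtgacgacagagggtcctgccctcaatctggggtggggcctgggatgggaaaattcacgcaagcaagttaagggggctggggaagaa

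The H2-K1 and H2-D1 windows were alike, with 177 of 203 aligned bases identical (87.2%) and a longest shared run of 47 bases. The longest stretch of overlapping NF-kB matches that both share is GGGGATTCCCC. It was read from these windows, so its presence in both follows from that choice. Of 32851 windows of 250 bases before a transcript start, 0.0304% held it. Of the 8 members with a window, those with an NF-kB match (7.25% of windows) and those with an ISRE core (21.3%) were B2m, H2-K1 and H2-D1. These forms were chosen after the windows were read. With a wider NF-kB form, its middle bases left free, the match was in 45.8% of windows and also in Tap1 and Psmb9, and with a longer ISRE form it was in 2.98% and of these members in B2m. A CRE core (TGACG, 17.8%) was in B2m, H2-K1, H2-D1, Tap1 and Psmb9, and a CCAAT box (33.8%) in those 5 and in Tapbp. No window was available for Tap2 and Nlrc5, so they were not searched. The 225 bases shown for Tap1 are all that lies between its start and that of Psmb9, which is read from the other strand, so these genes share them.

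**Figure D1:**
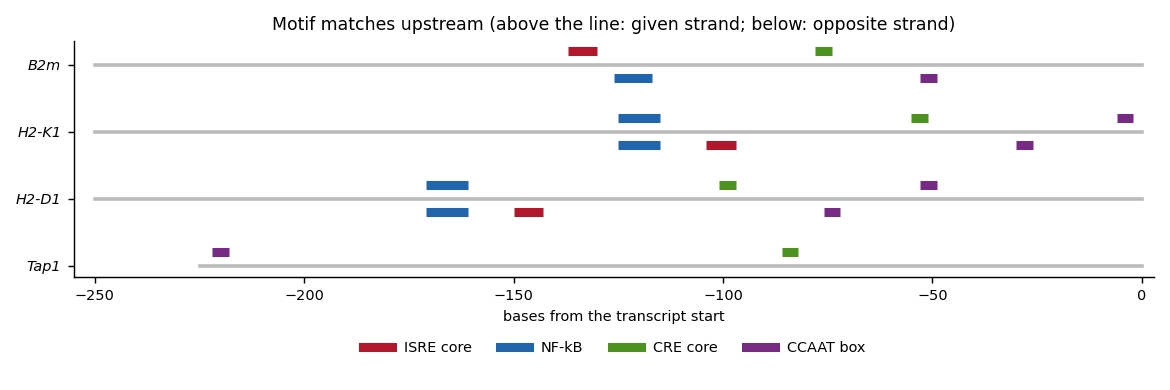
Positions of motif matches in the upstream windows shown for B2m, H2-K1, H2-D1 and Tap1, with bases from the transcript start on the horizontal axis and each bar 1 match, above the line on the strand given and below it on the other. B2m, H2-K1 and H2-D1 hold NF-kB, ISRE core, CRE core and CCAAT matches, and Tap1 holds the last of these and a CRE core.

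On their brightest probe sets, the genes of the class I molecule itself gave slightly lower signals on the 3 effector arrays than on both the naive and the memory array. B2m encodes beta-2 microglobulin, the light chain of every class I molecule. Its signal was 34832 on the naive, 31472 on the control effector, 31366 on the Rap, 31821 on the TOFA and 36439 on the memory array. The largest ratio between any of its arrays was 1.16, and the effector arrays were within 0.02 of each other on the log2 scale. Its other probe set put Rap and TOFA 0.15 and 0.16 above control effector cells, so the order of the effector arrays was within the spread between the probe sets. On that set Rap (30651) and TOFA (30858) also lay above naive cells (30026). With the values as deposited they lay below naive cells there (30601 and 27523 against 31991).

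H2-K1, a classical heavy chain that presents peptides to CD8 T cells, had signals of 28519 in naive, 22066 in control effector, 24478 in Rap, 24669 in TOFA and 31300 in memory cells. Control effector cells were the lowest, 1.29-fold below naive and 1.42-fold below memory cells. All 4 of its probe sets gave a lower signal in control effector than in naive cells, with differences from -0.36 to -0.79. Rap and TOFA differed by 0.01, less than the SD of 0.07 between the probe sets.

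H2-D1, the other classical heavy chain gene of the list, followed the same profile, at 25800 in naive, 19620 in control effector, 21954 in Rap, 20474 in TOFA and 28440 in memory cells. Control effector cells again had the lowest signal, 1.32-fold below naive and 1.45-fold below memory cells. Of the 9 probe sets, 8 were above the floor, and the 7 beside the brightest ranged from -1.31 to 0.69 for control effector against naive, with a median of -0.58. The step from naive to Rap (0.23) was within the SD of 0.45 between probe sets. TOFA lay above control effector cells by 0.06, within the SD of 0.13. With the values as deposited TOFA was the lowest array (20292 against 20605 in control effector).

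The size of the heavy chain difference depended on the probe set. The bright H2-D1 sets are of the _x_at kind, which can match several transcripts, and class I genes are near copies of each other. Of the 2 H2-D1 probe sets outside that kind, 1 was under the floor on every array and the other had signals of 6557 in naive, 2646 in control effector, 3193 in Rap, 2906 in TOFA and 6281 in memory cells. There the control effector array was lower than naive by 1.31 and lower than memory by 1.25, both past 2-fold. All H2-K1 probe sets are _x_at. The brightest sets of B2m, H2-K1 and H2-D1 lay between the 99.4th and the 99.8th percentile of their arrays, near the top of the range of signals. Whether shared sequence, the strain's haplotype or signals near the top of the range shape these differences was not tested.

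**Figure D2:**
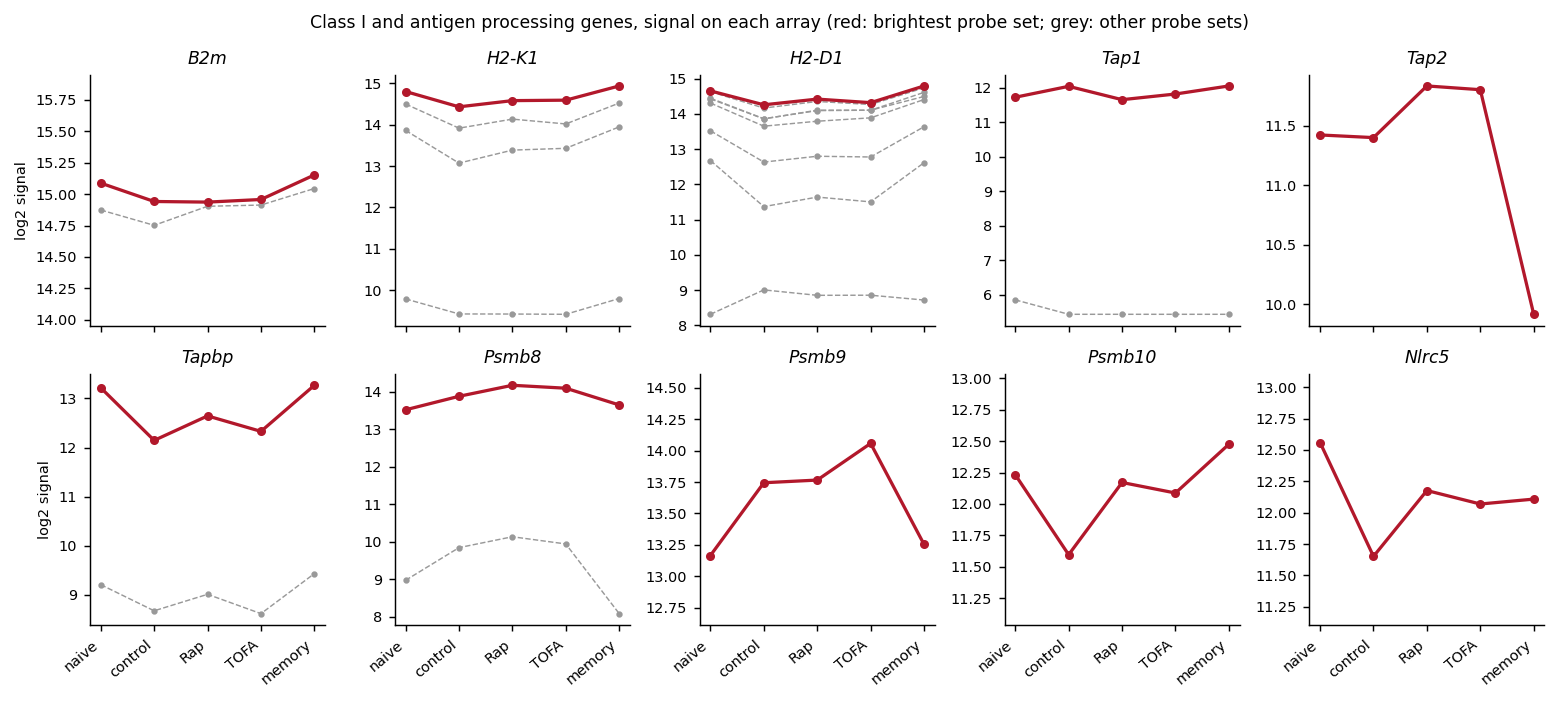
Log2 signal of each member on the naive, control effector, Rap, TOFA and memory arrays, 1 array a group, with lines joining values of 1 probe set and the brightest set in red. On the brightest sets B2m, H2-K1, H2-D1 and Tapbp dip on the effector arrays and Psmb8 and Psmb9 peak there. Tap2 is lowest in memory cells (967 against 2747 in naive). Each panel has its own vertical scale.

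Of the peptide transport and loading genes, Tapbp was at least 2-fold lower in control effector cells and Tap2 in memory cells. Tapbp encodes tapasin, which holds empty class I molecules at the TAP transporter until a peptide fits. Naive cells gave a signal of 9528, control effector cells 4530, Rap cells 6402, TOFA cells 5146 and memory cells 9869. Control effector cells were 2.10-fold lower than naive cells (log2 -1.07), and memory cells 2.18-fold higher than control effector cells (1.12). Its dimmer probe set gave -0.53 and 0.76, the same directions but under 2-fold, and with the values as deposited the main set gave -0.87 and 0.86. Rap lay above control by 0.50 and above TOFA by 0.32, the latter more than the SD of 0.06 between the probe sets.

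Tap2, a subunit of the peptide transporter, was read by 1 probe set. It gave 2747 in naive, 2705 in control effector, 3654 in Rap, 3575 in TOFA and 967 in memory cells. Memory cells stood apart, 2.84-fold lower than naive (log2 -1.51) and 2.80-fold lower than control effector cells (-1.48). The difference lay at percentile 1.14 of all genes compared in memory against naive, and at percentile 7.81 in memory against control effector cells. The alternatives kept the memory against naive difference between -1.51 and -1.44. Most of them could not change it, as Tap2 had 1 probe set and was well above the floor. With 1 probe set, no spread can be given.

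Tap1, the partner subunit, did not share that pattern. The naive array read 3395, control effector 4229, Rap 3234, TOFA 3624 and memory 4261. No pair of arrays differed by more than 1.32-fold, and it was the member with the lowest Rap value relative to control effector cells (-0.39). Of its 3 other probe sets, 2 were under the floor on every array and 1 was above it only in naive cells (58.0). Psmb9, across the shared promoter region, was highest in TOFA cells and lowest in naive cells.

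The immunoproteasome is a form of the proteasome with 3 catalytic subunits exchanged, which shifts cleavage towards peptides that fit class I molecules. Psmb8 and Psmb9 had higher signals on all 3 effector arrays than on both resting arrays, while Psmb10 had lower ones, all under 2-fold on the brightest probe sets. Psmb8 (LMP7) stood at 11744 in naive, 15074 in control effector, 18482 in Rap, 17507 in TOFA and 12848 in memory cells. Control effector exceeded naive cells by 0.36 on this set and by 0.87 on the dimmer one. For memory against control effector cells the sets gave -0.23 and -1.76 (271 against 918 on the dimmer set, past 2-fold), and their mean lay just under 2-fold. For memory against naive they disagreed in sign (0.13 and -0.89), so the place of memory cells is uncertain.

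Psmb9 (LMP2) had signals of 9185 in naive, 13724 in control effector, 13928 in Rap, 17052 in TOFA and 9766 in memory cells. TOFA was the highest array, 1.24-fold above control effector cells, while Rap and control effector cells differed by 0.02. Psmb10 (MECL-1) gave 4812 in naive, 3095 in control effector, 4610 in Rap, 4350 in TOFA and 5694 in memory cells. Control effector was the lowest array for Psmb10, 1.55-fold below naive and 1.84-fold below memory cells, and Rap and TOFA lay 1.49-fold and 1.41-fold above it. Each of these genes was read by 1 probe set.

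The immunoproteasome subunits were also set against the constitutive subunits whose place they take, as the change of the log2 ratio between arrays. Psmb5, Psmb6 and Psmb7 lay 0.61, 0.48 and 1.27 above naive cells in control effector cells, past 2-fold for Psmb7 (signal 1734 against 720.5). The ratio of Psmb8 to Psmb5 differed from naive cells by -0.25 in control effector, -0.08 in Rap, -0.31 in TOFA and -0.19 in memory cells. It depended on the probe set: as a mean of probe sets it differed by 0.01 in control effector and by -0.70 in memory cells. The ratio of Psmb9 to Psmb6 stayed between -0.01 and 0.20 of the naive value on the other 4 arrays. The ratio of Psmb10 to Psmb7 was 3.74-fold lower in control effector than in naive cells (-1.90), with -1.13 in Rap, -1.32 in TOFA and -0.37 in memory cells. In memory against control effector cells this ratio was 2.90-fold higher. A changed ratio shows that the subunits' signals moved unequally and does not say which of them moved.

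**Figure D3:**
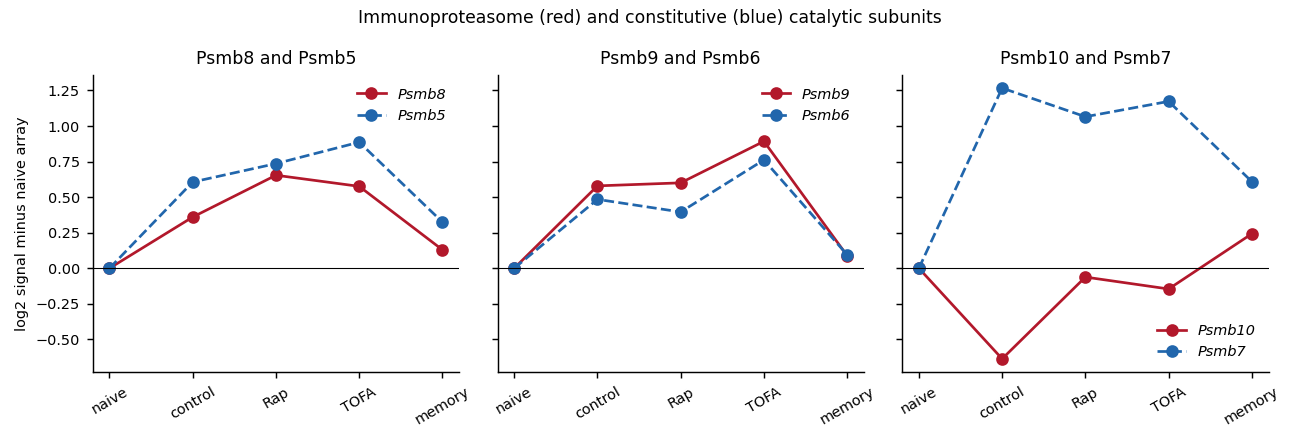
Log2 signal minus that of the naive array for each immunoproteasome subunit (red) and the constitutive subunit it replaces (blue), 1 array a group. On the brightest probe sets Psmb8 and Psmb9 run close to their partners. Psmb10 falls below Psmb7 by 1.90 in control effector cells and by 0.37 in memory cells.

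Nlrc5 encodes the coactivator that drives class I genes in lymphocytes. Naive cells read 6032, control effector cells 3219, Rap cells 4629, TOFA cells 4297 and memory cells 4415. Control effector was the lowest array, 1.87-fold below naive cells, which missed the 2-fold limit. Rap and TOFA lay 1.44-fold and 1.33-fold above control effector cells. Memory cells were 1.37-fold below naive cells, while the brightest sets of H2-K1 and H2-D1 were 0.13 and 0.14 above on the log2 scale. The H2-D1 set outside the _x_at kind gave -0.06, while the 7 other H2-D1 sets above the floor and all 4 H2-K1 sets lay above naive cells. Nlrc5 had 1 probe set.

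The members' counts past 2-fold were set beside those of all genes. In control effector against naive cells 1 of 10 members was at least 2-fold apart (Tapbp, lower), while 27.3% of the 13070 genes compared were. The median of the members was -0.26 and that of all genes 0.04. At 1.5-fold, 3 of 10 members (Tapbp, Nlrc5 and Psmb10, all lower) were apart, against 48.6% of all genes. In memory against naive cells 1 of 10 members (Tap2) passed 2-fold, against 16.7% of all genes, and in memory against control effector cells 2 of 10 (Tapbp higher, Tap2 lower), against 28.6%. All 10 members were above the floor on every array, so none was lost to the filter.

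With the values as deposited, the median of all genes for memory against control effector cells was 0.18 in place of -0.03. The split of all genes past 2-fold was then 2601 higher and 1453 lower in place of 1932 and 1873. For memory against naive cells it was 2075 and 344 in place of 1645 and 542. The memory values of single members should be read against those shifts.

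The Rap and TOFA arrays were compared with the same control array, so their differences are not independent. Against control effector cells, 0 of 10 members passed 2-fold in Rap (5.73% of all genes did) and 0 of 10 in TOFA (4.62%). In TOFA against Rap, 0 of 10 passed, against 4.63% of all genes. The members' median was 0.23 in Rap and 0.20 in TOFA, beside medians of 0.00 and 0.01 over all genes. Signals lay above control for 8 of 10 members in Rap, or 9 with the values as deposited, and for 9 of 10 in TOFA, or 7 with those values. Psmb10 had the highest difference from control of all members on both arrays (0.57 and 0.49), followed in Rap by Nlrc5 (0.52) and Tapbp (0.50), and in TOFA by Nlrc5 (0.42) and Tap2 (0.40). Tap1 was below control on both (-0.39 and -0.22).

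**Figure D4:**
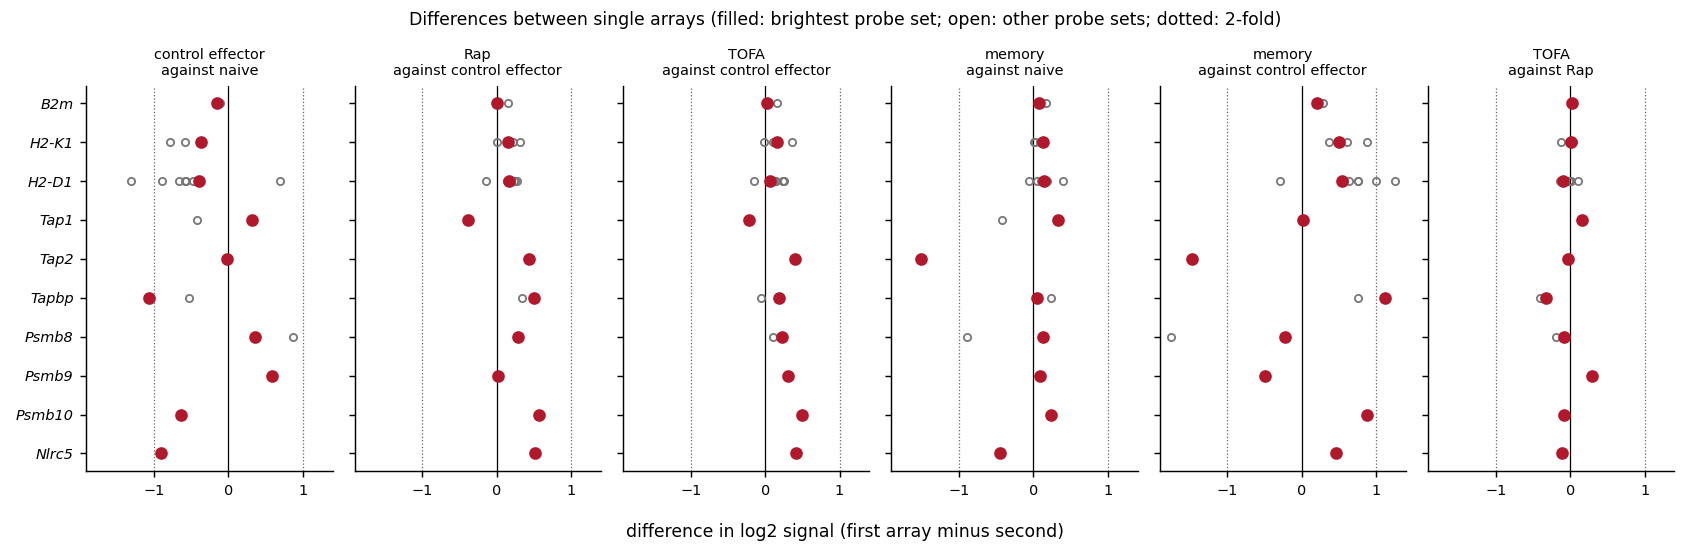
Difference in log2 signal between single arrays for each member in the 6 comparisons, with the brightest probe set filled, other probe sets open and dotted lines at 2-fold. The filled points past 2-fold are Tapbp in control effector against naive (-1.07) and memory against control effector (1.12), and Tap2 in memory against naive (-1.51) and control effector (-1.48).

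On 5 of 10 members (B2m, H2-K1, H2-D1, Tapbp and Psmb10) every effector array was below both the naive and the memory array, against 20.8% of the 14522 genes above the floor on any array. For Psmb8 and Psmb9 every effector array was above both, against 25.1% of those genes. The 14522 genes include ones at the floor on some arrays, which no member was, so these shares are not like for like. With the values as deposited Psmb10 left the first set and Tap2 joined the second, while the other members named here stayed. B2m is in the first set by its brightest probe set, as its other set had Rap and TOFA above naive cells after normalization. Memory cells had the highest signal of 6 of 10 members, and of 19.0% of the 9833 genes above the floor on all arrays. Control effector cells had the lowest of 5 of 10 members, and of 19.8% of those genes. Both counts were smaller with the values as deposited. Tap1 was then highest in control effector cells (4460 against 3848 in memory) and Tapbp in naive cells (8777 against 8705 in memory). H2-D1 was then lowest in TOFA cells (20292 against 20605 in control effector).

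Markers of other spleen cells moved with these groups, given here as sums of signals with no floor set. Such a sum follows its brightest genes. Of the 6 B cell markers on the array, the summed signal was 32097 in naive, 1795 to 2510 on the effector arrays and 48412 in memory cells. Ighm alone gave 27391 in naive and 28142 in memory cells. The other 5 were 2.21-fold (Pax5) to 4.62-fold (Ms4a1) higher in memory than in naive cells. The 8 myeloid markers summed to 5798 in naive, 236 to 345 on the effector arrays and 51046 in memory cells, with Lyz2, S100a8 and S100a9 under the floor on every effector array. Most of the naive sum came from S100a8 (2917), S100a9 (1693) and Lyz2 (811). The 3 plasma cell markers summed to 7875, 315 to 451 and 11188 in the same order, of which Jchain gave 7090 in naive and 8561 in memory cells. The 5 dendritic markers summed to 286, 124 to 202 and 1347, and the 3 erythroid ones to 98.7, 8.97 to 45.8 and 2467. The 3 NK markers summed to 331, 642 to 1964 and 298, of which Eomes, a transcription factor that activated T cells also make, gave 245, 616 to 1948 and 188. The NK receptor gene Ncr1 was at 83.8 in naive and 102 in memory cells and under the floor on the effector arrays, and Klra8 was under it on every array. CD8 genes summed to 703, 317 to 400.3 and 1072. The 7 T cell markers on the array, Cd4 among them, were above the floor on every array and summed to 67945 in naive, 41701 to 49385 on the effector arrays and 46561 in memory cells. Of these T cell markers, 6 of 7 lay below naive cells in control effector cells, with a median of -0.93, against 6278 of 13070 of all genes. In memory cells 7 of 7 lay below naive cells, with a median of -0.49, against 7003 of 13082 of all genes. Class I genes are active in nearly all nucleated cells, and the part of other cells in the members' values was not tested. In such bulk RNA, fewer cells of a type and less RNA per cell cannot be told apart.

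Other genes of the pathway came from lists made with earlier results known, and some listed genes had no probe set with 1 symbol. Other class I heavy chain genes went both ways between control effector and naive cells, with 2 of 7 past 2-fold upwards, 2 downwards and a median of -0.06. Of all genes 27.3% passed 2-fold in that comparison, either way. H2-Q10, a secreted class I molecule, was 16.2-fold higher (signal 1661 against 102), with 222 in Rap and 479.7 in TOFA cells, and H2-Q5 stood at 849 against 396. Cd1d1, which presents lipids to NKT cells, was 7.48-fold lower (352 against 2630), and H2-T24 was 2.02-fold lower. H2-M3, which presents formylated peptides, was 2.53-fold higher in memory than in control effector cells. Whether transcripts of H2-K1 and H2-D1 add to the signals of these probe sets was not tested.

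Among 12 genes of peptide trimming and class I folding, 1 passed 2-fold upwards and 0 downwards between control effector and naive cells, with a median of 0.22. Of all genes 27.3% passed it either way. The 1 was Lap3, a cytosolic aminopeptidase (1338 against 426), which had a signal of 2526 in memory cells. Erap1, which trims peptides in the endoplasmic reticulum, stood at 1509 in control effector, 2396 in Rap and 1829 in TOFA cells, under 2-fold apart. In Rap and TOFA against control 0 of these 12 passed 2-fold, with medians of 0.17 and 0.14, where 5.73% and 4.62% of all genes did. The chaperones Calr, Canx and Pdia3 had signals of 8439, 8070 and 8696 in naive cells and of 10233, 11809 and 9683 in control effector cells.

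Of the 11 other subunits of the 20S proteasome core, Psmb2 was 2.47-fold higher in control effector cells relative to naive cells and 0 passed 2-fold downwards, with a median of 0.38. Over all genes 27.3% passed 2-fold either way. The 8 activators and assembly factors had a median of 0.40, also with 1 past 2-fold. It was Psme3, a nuclear proteasome activator (2.99-fold), while Psme1, the interferon-induced activator subunit, stood at 11281 against 12969. In memory against control effector cells, 10 of the 11 core subunits were below 0, with a median of -0.38 and 0 past 2-fold. Of all genes 6870 of 13326 were below 0 and 28.6% past 2-fold.

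Regulators of class I genes and of interferon signalling went both ways. Against naive cells, control effector cells had Irf8 and Socs1 past 2-fold upwards and Ifngr2, Jak1 and Irf9 downwards, with a median of -0.48 over the 18 compared. These 5 of 18 are a share near the 27.3% of all genes past 2-fold in that comparison. Ifngr2, a chain of the interferon-gamma receptor, was 9.46-fold lower (signal 125 against 1180), and Jak1, a kinase of that receptor, was 3.07-fold lower. Irf1, a transcription factor that binds class I promoters, had signals of 6844 in naive, 3471 in control effector, 6051 in Rap, 5314 in TOFA and 6609 in memory cells. None of its differences passed 2-fold, and control effector was its lowest array, as for Nlrc5 and Psmb10. Rfx5, a subunit of the complex that binds class I and class II promoters, stood at 934, 1006, 625, 799.9 and 1321 in the same order. Ciita, the class II coactivator, was 98.8 in naive, 53.8 to 62.4 on the effector arrays and 267 in memory cells. In Rap and in TOFA against control, 0 of the 18 passed 2-fold, where 5.73% and 4.62% of all genes did.

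Interferon stimulated genes gave larger differences on the TOFA array than the members did. Of 20 compared, 13 were at least 2-fold higher in TOFA than in control effector cells and none lower, with a median of 1.81. Of all genes 318 of 12850 were higher, and of the members 0 of 10, with a median of 0.20. Rtp4, a chaperone of membrane receptors, was 21.0-fold higher (signal 1641 against 78.1), and Mx1, an antiviral GTPase, at least 14.4-fold higher (control under the floor). In Rap against control, 7 of 18 were at least 2-fold higher, with a median of 0.88, against 234 of 12851 of all genes. In control effector against naive cells 11 of 20 were at least 2-fold lower, with a median of -1.12, against 1493 of 13070 of all genes. MHC class II genes, which mark antigen presenting cells, were at least 2-fold higher for 6 of 7 in memory against naive cells (median 2.25), and 4 of 7 were lower in control effector against naive cells. Over all genes these counts were 1645 of 13082 and 1493 of 13070.

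**Figure D5:**
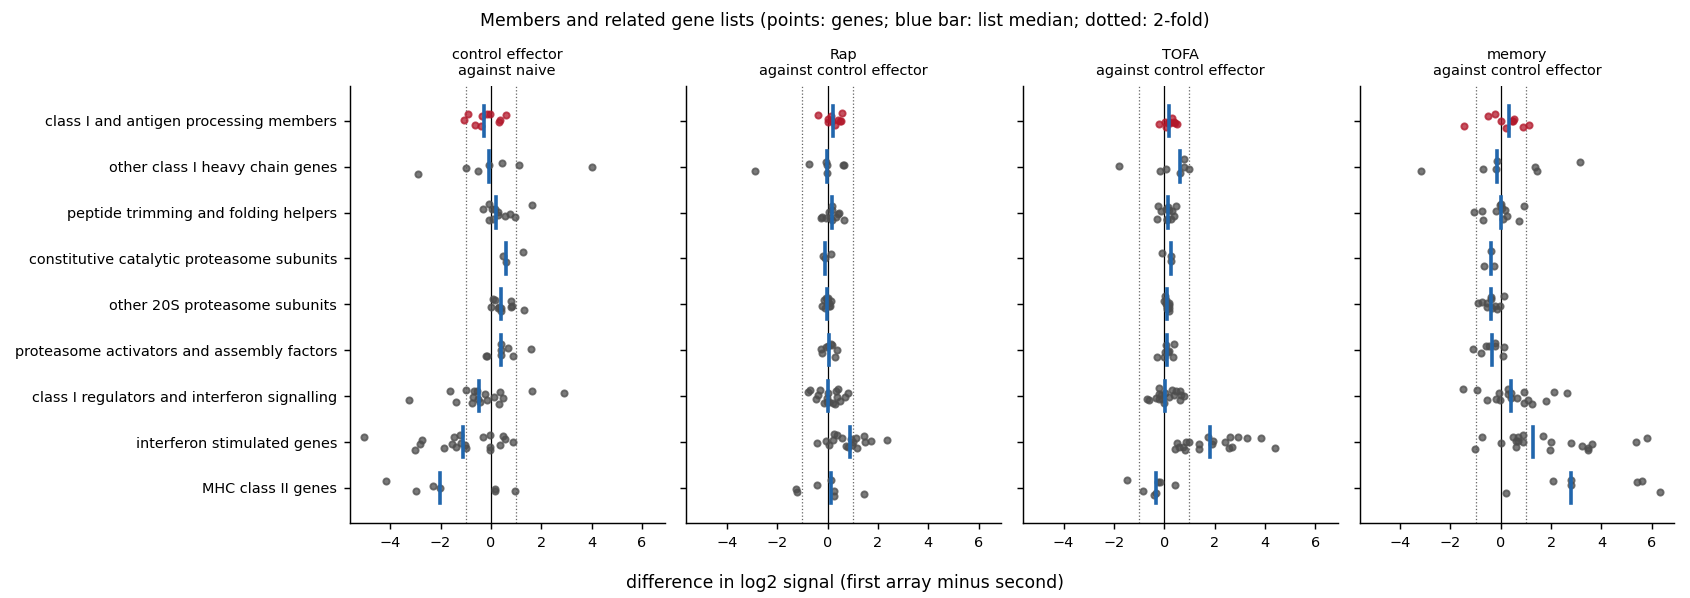
Difference in log2 signal of each gene (points) of the member list and of 8 related lists in 4 comparisons, with list medians as blue bars and dotted lines at 2-fold. The members in red lie within 2-fold in Rap and TOFA against control, while 13 of 20 interferon stimulated genes lie past it upwards in TOFA. Of all genes 318 of 12850 do.

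The members differed among themselves in profile, measured as the Euclidean distance between log2 profiles over the 5 arrays after each was centred on its mean. H2-K1 and H2-D1 were closest (0.107), followed by B2m with H2-K1 (0.218) and with H2-D1 (0.271). The H2-K1 and H2-D1 profiles rest on _x_at sets, which can match transcripts of both genes. On the H2-D1 set outside that kind, control effector against naive was -1.31, in place of -0.40 on the brightest set. H2-K1 and Psmb10 were 0.334 apart and Psmb8 and Psmb9 0.337, while Tap2 and Tapbp were farthest apart (2.345). The mean profile of the members was nearly flat, from -0.16 in control effector to 0.07 in naive cells. Of the 9833 genes above the floor on all arrays, those outside the list nearest to this mean were Pphln1, Tpm3, Dph6, Wdr3, Tbcc and Fam207a, at distances from 0.071 to 0.087. The members themselves lay 0.245 (B2m) to 1.545 (Tap2) from it.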

How the data were processed

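GCOS and Affymetrix Expression Console are the tools named, per the submitters' processing notes, and no version or algorithm is stated. The authors deposited 1 linear intensity for each probe set and sample. The mean after trimming 2% at each end was 500.0 on every array, while array medians ranged from 62.8 to 99.1, 0.66 apart on the log2 scale. The number of arrays limits the precision.

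After 64 control probe sets of 45101 were set aside, the arrays were quantile normalized (Python 3.11.15, numpy 2.4.6, pandas 2.3.3). Gene symbols came from the platform annotation, and 932 probe sets with several symbols and 9160 with none were not used. The RefSeq table (GRCm38.p6) held the gene identifier of all 27 member probe sets, and 0 symbols were updated. A gene was represented by its brightest probe set (by mean log2 signal), values under the 40th percentile were raised to it, and genes at the floor on both arrays were not compared. Promoter windows were aligned end to end with Biopython. The procedure was tested on simulated data.

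Named genes were the members, up to 4 genes of each related list with the largest differences in the comparison described, Irf1, Rfx5 and Ciita, the chaperones Calr, Canx and Pdia3, Erap1, Psme1 and Cd4, and the 6 genes nearest in profile. The chaperones, Erap1, Psme1, Cd4, Irf9, Eomes, Ncr1, Klra8 and the NF-kB and ISRE core forms were picked after values were seen. So were the markers Ighm, Pax5, Ms4a1 and Jchain. Members and lists were chosen with earlier results of these data known. Alternatives were the values as deposited, other floors, the mean of probe sets, leaving out _x_at and _s_at sets, an added constant and a 1.5-fold limit. The result of 1 further motif is not reported here.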

Additional observations from a re-analysis of the deposited data

How the results depend on the processing

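No paired analysis was possible because each group had 1 array, and for the same reason no replicate could be left out. The 60 member differences were recomputed under 6 alternatives, giving 354 values, since H2-K1 has no probe set outside the _x_at kind. Many of these values could not move. All members were above the floor on every array, so the other floors gave the main values. The mean of probe sets could not change Tap2, Psmb9, Psmb10 or Nlrc5, and leaving out _x_at and _s_at sets changed only H2-D1. On the 2-fold rule 348 kept their side, 4 fell under it, 2 passed it and 0 reversed, a tally that includes those fixed values. The 4 were Tapbp in control effector against naive (-0.87 as deposited, -0.80 as a mean of probe sets) and in memory against control effector cells (0.86 and 0.94). The 2 were H2-D1 without _x_at and _s_at sets (-1.31 and 1.25 in the same comparisons). The count of members past 2-fold in control effector against naive was therefore 0 as deposited and 0 as a mean of probe sets, 2 without _x_at and _s_at sets and 3 at 1.5-fold, in place of 1. In memory against control effector cells it was 1 as deposited and 1 as a mean of probe sets, in place of 2, and 3 without _x_at and _s_at sets. Counts of the other 4 comparisons were unchanged under every alternative. All 108 recomputed subunit ratio changes kept their side of 2-fold, with the other floors again giving the main values. The change of Psmb10 to Psmb7 in control effector against naive ranged from -1.90 to -1.67. That of Psmb8 to Psmb5 ranged from -0.70 to -0.15 in memory against naive and from -0.71 to 0.05 in memory against control effector cells. Under 2-fold, signs changed in at least 1 comparison for B2m, H2-K1, H2-D1, Tap1, Tap2, Tapbp and Psmb8, and their direction should not be read there. As a mean of probe sets, Tap1 went from 0.32 to -0.03 in control effector and from 0.33 to -0.02 in memory cells, each against naive cells, and Psmb8 in memory against naive cells from 0.13 to -0.38. Members with 1 probe set carry no measure of spread.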

Other observations

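Probe sets annotated to a member together with another gene were left out of the comparisons. The set shared by H2-K1 and H2-D1 had signals of 16597 in naive, 9673 in control effector, 11452 in Rap, 11871 in TOFA and 16575 in memory cells. The set shared by H2-Q5 and H2-K1 had 14401 in naive, 4512 in control effector, 5670 in Rap, 6114 in TOFA and 11481 in memory cells, with control effector lower than naive cells by 1.67 on the log2 scale (log2 -1.67). A set shared by H2-D1, H2-Q2 and a predicted gene was under the floor on every array. The H2-D1 set with the lowest signal above the floor went the other way from the rest in control effector against naive cells, at 514 against 318.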
